A study of Mus musculus with 12 samples.

Results

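The integrated stress response was examined through 10 named genes in primary mouse hepatocytes, the parenchymal cells of the liver, kept in culture. The genes were Atf4, Atf3, Ddit3, Cebpb, Ppp1r15a, Trib3, Asns, Sesn2, Gdf15 and Fgf21, chosen by name and matched to their Ensembl identifiers among the 55487 identifiers counted. All 10 had enough reads to be tested, among 13535 genes tested in all. The series held 12 RNA-seq libraries, 3 for each of 4 groups. Control hepatocytes received neither a scavenger nor FAC, which the labels give as an abbreviation only. FAC hepatocytes received FAC without pretreatment. Lip-1+FAC hepatocytes were given liproxstatin-1, described as a scavenger of reactive oxygen species (ROS) from lipids, before FAC, on culture day 2. MT+FAC hepatocytes were given Mito-TEMPO, described as a scavenger of mitochondrial ROS, before FAC on the same day. No group received a scavenger without FAC, so that the effect of either scavenger alone cannot be told apart from its effect on cells given FAC. The labels name no mouse strain, age, dose or duration, and do not say whether replicates came from separate animals or cultures. The p-values therefore measure the spread between these libraries, which may be technical.

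In the integrated stress response, kinases that sense amino acid shortage, viral RNA, misfolded protein in the endoplasmic reticulum (ER) or low heme phosphorylate the translation factor eIF2. General translation then slows, while the transcription factor ATF4 is translated more from its existing mRNA. ATF4 switches on genes of amino acid supply, further transcription factors such as ATF3 and CHOP (encoded by Ddit3), and feedback genes that end the response. In the liver the pathway is also known for the secreted hormones FGF21 and GDF15. Because ATF4 is controlled largely at translation, an mRNA level is not a measure of its protein or activity.

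The element to which ATF4 binds with C/EBP partners, TGATGNAA, was searched on both strands in the 250 bases upstream of each gene's RefSeq start or starts. So was the cAMP response element TGACGTCA, which ATF and CREB proteins bind. All 10 genes had an entry in the RefSeq promoter table (build GRCm38.p6). TGATGNAA was present for 3 of them, Asns, Atf3 and Fgf21, and in 3.91% of all 27025 genes in the table. TGACGTCA was present for Ppp1r15a and in 1.77% of genes. The motifs did not overlap in any of these genes. These matches are shown so that the letters can be set beside the levels of the 4 genes given below. Capitals mark the match, and each line reads 5′ to 3′ on the gene's strand, which is the minus strand for all 4. The stretches are chr6:7693214-7693243 for Asns, chr1:191183410-191183469 for Atf3, chr7:45615596-45615655 for Fgf21 and chr7:45526269-45526306 for Ppp1r15a.
Asns: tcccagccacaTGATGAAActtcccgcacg
Atf3: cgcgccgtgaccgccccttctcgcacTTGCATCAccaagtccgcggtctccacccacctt
Fgf21: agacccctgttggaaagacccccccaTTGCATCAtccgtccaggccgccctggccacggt
Ppp1r15a: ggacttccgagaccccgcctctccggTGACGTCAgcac
In Asns the match lay on the gene's strand and its first base was at -23 from the RefSeq start, inside an exon of the GENCODE M21 annotation. In Atf3 and Fgf21 it lay on the opposite strand, at -110 and -139 from the RefSeq start, outside annotated exons. The Atf3 stretch lies inside the GENCODE span of that gene (191170296 to 191218039), so it is not upstream of the outermost GENCODE start. In Ppp1r15a it began at -12. A match is a description of letters in this window and says nothing of binding in these cells.

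Depth was 22991598 to 31683376 gene-assigned counts in 11 libraries. FAC replicate 2, whose file is marked as combined, held 52529278. The 10 hepatocyte markers were all detected, with summed levels of 17753.6 to 18148.3 CPM (counts scaled to library size) in control, 17258.7 to 18123.7 in FAC, 13901.4 to 14973.6 in Lip-1+FAC and 14237.7 to 15581.7 in MT+FAC. Single markers moved within this sum. With FAC, Cps1, the first enzyme of the urea cycle, fell from 1695.4 to 711.4 CPM (-1.25, called) and the cytochrome gene Cyp2e1 rose from 334.9 to 449.4 CPM (0.42, called). Of the 10, 2 were called higher and 2 lower with FAC, beside 17.5% and 19.1% of all genes. Against FAC, 6 of the 10 markers were called lower with each scavenger, where 19.2% and 19.7% of all genes were. Cps1 alone was called higher, by 0.54 and 0.57, where 20.7% and 21.2% of all genes were. Against control, 9 were lower with liproxstatin-1 and 7 with Mito-TEMPO, beside 14.8% and 10.1% of all genes. Apob alone was called higher than control, by 0.55 and 0.53, beside 15.4% and 9.71% of all genes. Of the markers of other liver cells listed, none was at 0 in all libraries. The summed level of 8 Kupffer cell and leukocyte markers was 219.9 to 252.0 CPM in control, 285.1 to 318.6 in FAC, 113.1 to 143.2 in Lip-1+FAC and 140.0 to 170.6 in MT+FAC. Nearly all of it was Cd68, a lysosomal protein gene of macrophages, with means of 226.2, 295.5, 124.5 and 144.7 CPM in that order. Clec4f, which is specific to Kupffer cells, went the other way, with means of 1.10 CPM in control and 0.5 CPM in FAC (log2 fold change -1.08, called). It had 0.907 CPM in Lip-1+FAC (0.81 against FAC, not called) and 1.17 CPM in MT+FAC (1.16 against FAC, called). The other 4 tested markers were not called with FAC, and the median of the 6 tested was 0.29. Cd68 was the only marker of this list called lower than FAC in either pretreated group. The 5 cholangiocyte markers summed to 4.23 to 5.66, 8.91 to 17.1, 1.75 to 2.39 and 2.50 to 3.55 CPM in the same order. The 6 stellate cell markers summed to 11.5 to 16.7, 20.8 to 21.8, 9.24 to 11.2 and 11.3 to 12.2 CPM. Their rise with FAC was that of Reln, from 7.46 to 16.1 CPM, whereas Dcn fell (-0.60, called) and the median of the 4 tested was -0.48. The 6 endothelial markers summed to 35.2 to 36.9, 34.8 to 35.3, 25.6 to 27.6 and 25.5 to 29.8 CPM. Of the 5 tested, Stab2 alone was called against FAC, with a mean of 26.5 CPM in FAC against 17.9 CPM after liproxstatin-1 and 19.2 CPM after Mito-TEMPO. The share of reads assigned to genes was 78% to 79.8% in control, 75.8% to 77.8% in FAC and 80.4% to 81.2% in the pretreated groups. The share of counts from the mitochondrial genome was 0.954% to 1.21% in control, 1.15% to 1.23% in FAC, 0.717% to 0.798% in Lip-1+FAC and 0.639% to 0.711% in MT+FAC. The part of these differences in the results below was not tested. In bulk RNA, fewer cells of a type and less RNA per cell cannot be told apart.

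FAC raised 7 of the 10 genes and lowered 0, whereas 36.6% of all genes tested were called in this comparison, 17.5% higher and 19.1% lower. The risers were Ddit3, Ppp1r15a, Atf3, Gdf15, Trib3, Atf4 and Sesn2, and the other 3, Cebpb, Asns and Fgf21, did not pass the test. All libraries of 1 group lay above all of the other for 6 of the 10, against 46.2% of all genes. With liproxstatin-1 before FAC, 7 of the 10 were lower than with FAC alone and 1, Fgf21, was higher, where 39.9% of all genes were called, 20.7% higher and 19.2% lower. With Mito-TEMPO before FAC, 7 were lower and 2, Fgf21 and Asns, were higher, where 40.9% of all genes were called, 21.2% higher and 19.7% lower. Such a separation was found for 8 genes with liproxstatin-1 and for 9 with Mito-TEMPO, against 50.8% and 52.9% of all genes. Both scavenger comparisons use the FAC libraries, as does the comparison of FAC with control. The median log2 fold change of the 10 genes was 0.45 in FAC against control, -0.47 in Lip-1+FAC against FAC and -0.45 in MT+FAC against FAC, beside -0.006, 0.001 and -0.001 over all genes tested. A gene was called by edgeR's quasi-likelihood test at a Benjamini-Hochberg adjusted p under 0.05 over all 13535 genes, and this applies to each call below. SE stands for standard error, on the log2 scale.

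**Figure D1:**
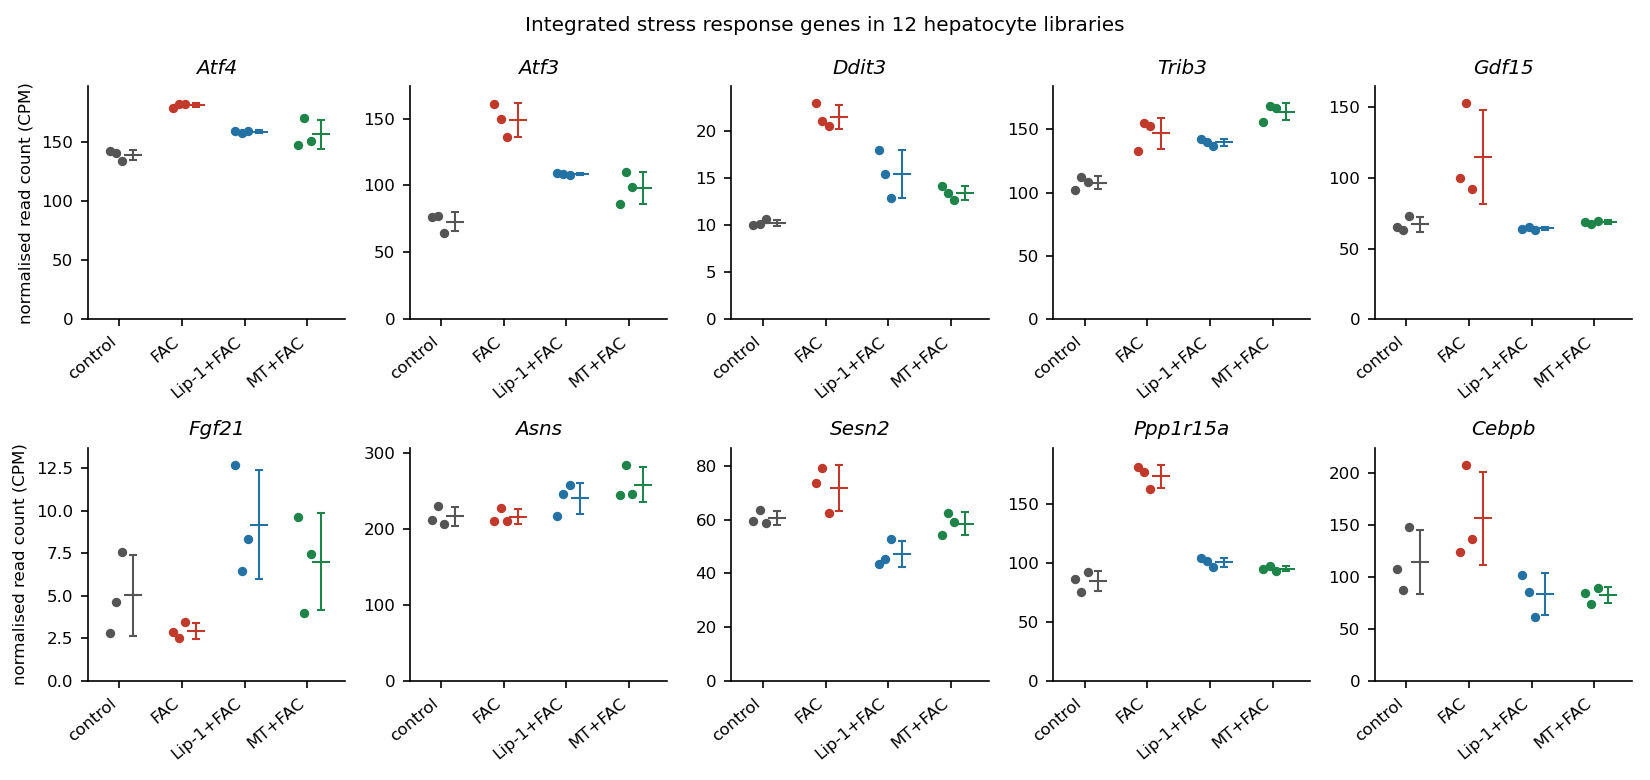
Normalised read counts (CPM) of the 10 genes in each of the 12 libraries; points are libraries, and the dash with its bar is the mean ± SD of 3. The 3 FAC libraries of Atf3, Ddit3 and Ppp1r15a lay above those of every other group, whereas Trib3 stayed high in the pretreated groups and Fgf21 had its lowest mean in FAC.

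Of the transcription factors, Atf4 encodes the central activator of the response (ENSMUSG00000042406, GRCm38 chromosome 15, 80255184 to 80257541, plus strand). Its normalised read count was 142.2, 140.5 and 133.9 CPM in the control libraries and 179.1, 181.9 and 182.1 CPM in the FAC libraries. It was 159.4, 157.6 and 159.2 CPM in Lip-1+FAC and 147.7, 170.5 and 150.9 CPM in MT+FAC. FAC libraries were the highest without overlap, and both pretreated groups lay between FAC and control. Atf4 rose 1.30-fold with FAC, or 0.38 on the log2 scale (SE 0.058), at edgeR adjusted p = 5.41e-05. Against FAC alone it was lower by a log2 fold change of -0.19 with liproxstatin-1 and -0.21 with Mito-TEMPO (SE 0.0578 each, edgeR adjusted p = 0.0144 and 0.00734). In Lip-1+FAC and MT+FAC it was higher than in control, by 0.19 and 0.17 (edgeR adjusted p = 0.0177 and 0.0452). The fall with liproxstatin-1 was -0.06 (edgeR adjusted p = 0.479) when trends with GC content and transcript length were removed as offsets. It was -0.18 without Lip-1+FAC replicate 2 (edgeR adjusted p = 0.0518). The differences from control varied with the settings. With the offsets they were 0.38 and 0.28, both called. That of Lip-1+FAC was not called without control replicate 3 (0.17), and that of MT+FAC was called in 7 of 16 alternatives, among which it was lost without control replicate 1, 2 or 3 or MT+FAC replicate 2 or 3, with 0.11 without MT+FAC replicate 2.

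Atf3 encodes a stress-induced factor of the same bZIP family (ENSMUSG00000026628, chromosome 1, 191170296 to 191218039, minus strand). It stood at 76.7, 77.2 and 64.6 CPM in control and at 161.2, 149.5 and 136.2 CPM in FAC. Levels were 109.4, 108.4 and 107.7 CPM in Lip-1+FAC and 86.5, 110.3 and 98.5 CPM in MT+FAC. Every pretreated library lay below every FAC library and above every control library. Atf3 rose 2.05-fold with FAC, by 1.03 on the log2 scale (SE 0.0882, edgeR adjusted p = 1.48e-07). It was lower than with FAC alone by -0.46 (SE 0.0868) with liproxstatin-1 and -0.60 (SE 0.087) with Mito-TEMPO, at edgeR adjusted p = 0.000459 and 4.2e-05. Against control it remained higher by 0.57 and 0.43 on the log2 scale.

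Ddit3 encodes CHOP, a C/EBP-like factor of prolonged ER stress that also promotes cell death (ENSMUSG00000025408, chromosome 10, 127290774 to 127296288, plus strand). It was counted at 9.996, 10.1 and 10.6 CPM in control and 22.9, 21.01 and 20.5 CPM in FAC. In Lip-1+FAC it was 17.9, 15.4 and 12.9 CPM, and in MT+FAC 14.1, 13.4 and 12.6 CPM. The FAC libraries were highest and the control libraries lowest, with no overlap of either with the pretreated groups. The rise with FAC was 2.10-fold, 1.07 on the log2 scale (SE 0.115, edgeR adjusted p = 1.42e-06). The log2 fold change against FAC was -0.48 (SE 0.112) with liproxstatin-1 and -0.68 (SE 0.113) with Mito-TEMPO, at edgeR adjusted p = 0.00252 and 0.000117. Ddit3 remained above control by 0.59 (SE 0.117) and 0.38 (SE 0.117), at edgeR adjusted p = 0.000901 and 0.028. The latter call was lost without any 1 of control replicates 1 and 2 and MT+FAC replicates 1 and 2.

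Ddit3 shares 10.9% of its exonic bases with other genes, 68 of them with the oppositely oriented Mars, which encodes methionyl-tRNA synthetase. A second entry under the same symbol, ENSMUSG00000116429, lies wholly inside it on the same strand and had a total count of 0. In the unstranded column, reads on bases that 2 genes share are given to neither. The stranded columns assign such reads to the gene on the matching strand, and since these libraries do not mark strand, their sum can also hold reads of Mars. With the columns summed, control cells had 27.3 ± 1.81 CPM of Ddit3 and FAC cells 40.1 ± 2.25, while cells given liproxstatin-1 had 33.7 ± 2.19 and those given Mito-TEMPO 31.8 ± 1.75 CPM (SD, n = 3). The reads gained by summing were 17.1 ± 1.5, 18.6 ± 2.29, 18.3 ± 1.51 and 18.4 ± 1.03 CPM in the same order (SD, n = 3). The libraries of the 4 groups overlapped in this gain. The fold change with FAC was 0.56 on the log2 scale with the summed columns (edgeR adjusted p = 5.16e-05), and those against FAC were -0.26 and -0.36. All 3 kept their call, whereas the difference of MT+FAC from control, at 0.21, did not (edgeR adjusted p = 0.101).

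**Figure D2:**
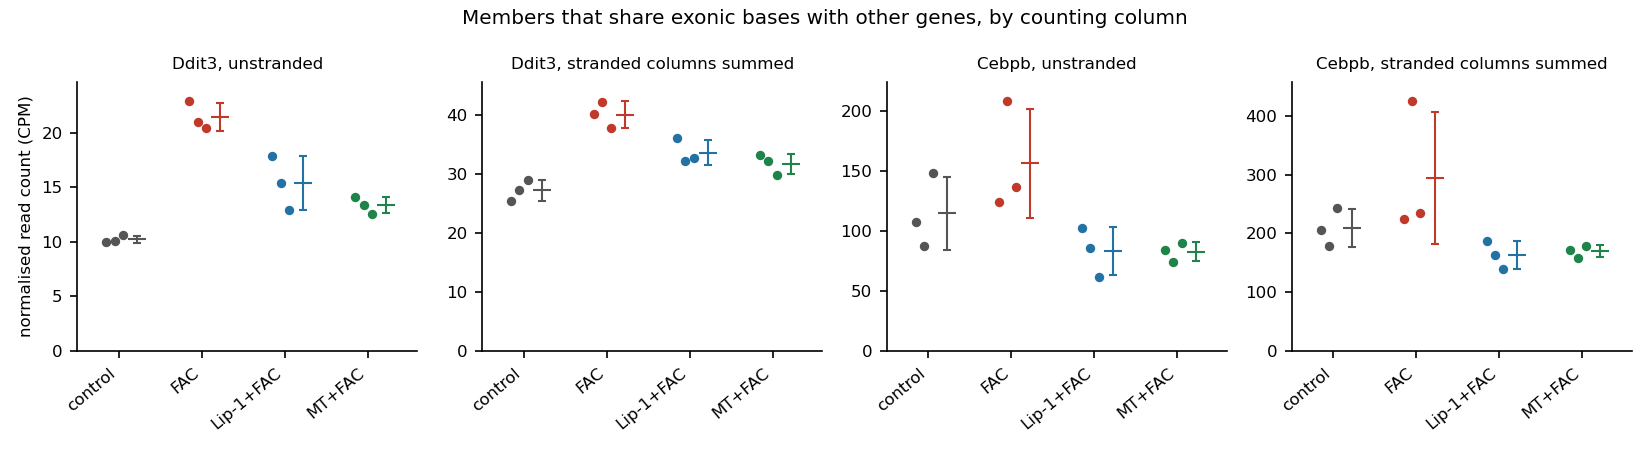
Normalised read counts (CPM) of Ddit3 and Cebpb per library from the unstranded column and from the stranded columns summed, as points with mean ± SD of 3. For Ddit3, summing added about the same amount in every group (group means of 17.1 to 18.6 CPM), which can include reads of Mars. For Cebpb it set FAC replicate 2, at 424 CPM, further above the other libraries.

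Cebpb encodes C/EBPβ, a partner of ATF4 and a factor of the hepatic acute phase response (ENSMUSG00000056501, chromosome 2, 167688915 to 167690418, plus strand). Its libraries varied widely within groups, with 107.8, 87.9 and 148.5 CPM in control and 124.5, 208.4 and 136.8 CPM in FAC. The pretreated groups had 102.2, 86.1 and 61.8 CPM (Lip-1+FAC) and 84.5, 74.2 and 89.8 CPM (MT+FAC). FAC overlapped control, and FAC replicate 2 was the highest of all 12. The difference with FAC, 0.45 on the log2 scale, was not called (SE 0.267, edgeR adjusted p = 0.227, 95% interval -0.16 to 1.06). Cebpb was lower than with FAC alone by -0.91 (SE 0.27) with liproxstatin-1 and -0.92 (SE 0.27) with Mito-TEMPO, at edgeR adjusted p = 0.0257 and 0.0236. Neither fall was called without FAC replicate 2 (-0.64 and -0.66, edgeR adjusted p = 0.0804 and 0.0743), nor with the GC and length offsets (-0.24 and -0.29). The transcripts of Cebpb had a GC content of 67.2%, where the median of the genes tested was 49.7%, and 20.7% of its exonic bases lie in the opposite gene Tmem189. The call with liproxstatin-1 was also lost without Lip-1+FAC replicate 2 or 3, and that with Mito-TEMPO without any MT+FAC replicate. Each was lost in 7 of 16 alternatives.

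Of the genes that hold the response back, Ppp1r15a encodes GADD34, which recruits a phosphatase to eIF2 and restores translation (ENSMUSG00000040435, chromosome 7, 45522916 to 45526268, minus strand). It was measured at 86.2, 75.3 and 92.1 CPM in control and 180.9, 176.6 and 162.1 CPM in FAC. It was 103.7, 101.6 and 96.1 CPM in Lip-1+FAC and 94.5, 97.3 and 93.4 CPM in MT+FAC. All 6 pretreated libraries lay above the control libraries and below the FAC libraries. The rise with FAC was 2.05-fold, 1.04 on the log2 scale (SE 0.0704, edgeR adjusted p = 7.95e-09). Against FAC it was lower by -0.79 (SE 0.0699, edgeR adjusted p = 1.29e-07) with liproxstatin-1 and -0.87 (SE 0.0699, edgeR adjusted p = 7.56e-08) with Mito-TEMPO. Lip-1+FAC stayed above control by 0.25 (edgeR adjusted p = 0.0121), or 0.18 and not called without control replicate 2, and 0.42 and called with the offsets. MT+FAC, at 0.17, was not called against control (edgeR adjusted p = 0.0971, 95% interval 0.02 to 0.32), but was 0.24 and called without control replicate 3 and 0.25 and called with the offsets.

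Trib3 encodes a pseudokinase that is induced by ATF4 and CHOP and dampens their activity (ENSMUSG00000032715, chromosome 2, 152337422 to 152344032, minus strand). Control libraries had 102.1, 112.3 and 108.7 CPM and FAC libraries 132.4, 154.9 and 152.9 CPM. Lip-1+FAC libraries had 142.3, 140.0 and 136.9 CPM and MT+FAC libraries 156.0, 168.7 and 166.4 CPM. All 9 libraries given FAC lay above the 3 control libraries, and the MT+FAC libraries were the highest. Trib3 rose 1.36-fold with FAC, 0.45 on the log2 scale (SE 0.0647, edgeR adjusted p = 3.46e-05). Neither difference from FAC was called, at -0.07 (95% interval -0.21 to 0.06) and 0.16 (0.02 to 0.29), with edgeR adjusted p = 0.404 and 0.0577. It was above control by 0.38 in Lip-1+FAC (edgeR adjusted p = 0.000261) and 0.60 in MT+FAC (edgeR adjusted p = 6.92e-06). The first was 0.63 with the offsets for GC and length. The differences from FAC depended on the processing. With the same offsets they were 0.21 and 0.34, both called higher, and that with Mito-TEMPO was also called without FAC replicate 2 (0.20) or 3 (0.19).

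Of the metabolic genes, Asns encodes asparagine synthetase, a classical ATF4 target in amino acid shortage (ENSMUSG00000029752, chromosome 6, 7675169 to 7693254, minus strand). Its levels were 212.2, 230.7 and 206.6 CPM in control and 210.3, 228.0 and 210.3 CPM in FAC. They were 217.1, 245.8 and 257.8 CPM in Lip-1+FAC and 244.7, 284.6 and 245.5 CPM in MT+FAC. FAC and control overlapped, and the MT+FAC libraries lay above both. FAC differed from control by 0.00 on the log2 scale, with a 95% interval of -0.16 to 0.15 (edgeR adjusted p = 0.988). Asns was higher in MT+FAC than in FAC by 0.26 (SE 0.0732, edgeR adjusted p = 0.0096) and than in control by 0.25 (edgeR adjusted p = 0.0203). Without MT+FAC replicate 2 these were 0.17 and 0.18 and were not called. The first was also not called without FAC replicate 1, nor the second without control replicate 1 or 3. With liproxstatin-1 the difference from FAC was 0.15, and it was not called (edgeR adjusted p = 0.11), although it was 0.22 and called without Lip-1+FAC replicate 1, as was the difference from control (0.22).

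Sesn2 encodes sestrin 2, a leucine sensor that restrains mTORC1 (ENSMUSG00000028893, chromosome 4, 132492032 to 132510501, minus strand). It had 59.5, 63.7 and 58.96 CPM in control and 73.9, 79.4 and 62.5 CPM in FAC. Lip-1+FAC had 43.7, 45.4 and 52.9 CPM and MT+FAC 54.2, 62.6 and 59.1 CPM. FAC replicate 3 fell within the control range, and every Lip-1+FAC library lay below every control library. The rise with FAC was 0.25 (SE 0.0901, edgeR adjusted p = 0.04). Its call was lost in 6 of 16 alternatives, among them without control replicate 1 or 3 or FAC replicate 1 or 2. Without FAC replicate 2 the rise was 0.17. Sesn2 was lower than with FAC alone by -0.61 (SE 0.0909, edgeR adjusted p = 4.18e-05) with liproxstatin-1 and -0.30 (SE 0.09, edgeR adjusted p = 0.0138) with Mito-TEMPO. The latter was not called without FAC replicate 2 or MT+FAC replicate 1. In Lip-1+FAC it was also below control, by -0.36 (edgeR adjusted p = 0.00626), or -0.17 and not called with the offsets. MT+FAC was not called against control, at -0.05 (95% interval -0.24 to 0.14).

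Of the secreted factors, Gdf15 encodes a TGF-β family hormone that reduces appetite and rises in mitochondrial disease (ENSMUSG00000038508, chromosome 8, 70629393 to 70632456, minus strand). It stood at 65.1, 63.2 and 73.01 CPM in control and 99.9, 152.7 and 91.9 CPM in FAC. Lip-1+FAC had 63.97, 65.4 and 63.1 CPM and MT+FAC 68.9, 67.5 and 69.7 CPM. All 3 FAC libraries were above all 9 others, which lay close together, and FAC replicate 2 was far above its own group. Gdf15 rose 1.72-fold, 0.78 on the log2 scale (SE 0.152, edgeR adjusted p = 0.00188), and by 0.52 without FAC replicate 2. Against FAC it was -0.84 (SE 0.152) with liproxstatin-1 and -0.75 (SE 0.151) with Mito-TEMPO, at edgeR adjusted p = 0.00101 and 0.00226. The latter was -0.48 without FAC replicate 2, and both were -0.42 with the offsets, in all cases called. Neither pretreated group was called against control, at -0.06 (95% interval -0.40 to 0.27) and 0.03 (-0.30 to 0.37).

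Fgf21 encodes a liver hormone of fasting and amino acid shortage that is under both ATF4 and PPARα control (ENSMUSG00000030827, chromosome 7, 45613886 to 45615490, minus strand). Its normalised read counts were low, at 2.82, 4.65 and 7.58 CPM in control and 2.85, 2.49 and 3.43 CPM in FAC. It was 12.7, 6.47 and 8.33 CPM in Lip-1+FAC and 9.60, 3.99 and 7.43 CPM in MT+FAC. Control libraries overlapped those of every other group, while all 6 pretreated libraries lay above the 3 FAC libraries. The difference with FAC, at -0.80 on the log2 scale, was not called (SE 0.423, edgeR adjusted p = 0.17, 95% interval -1.74 to 0.14). Fgf21 was 3.18-fold higher with liproxstatin-1 than with FAC alone, 1.67 on the log2 scale (SE 0.411, edgeR adjusted p = 0.00833). With Mito-TEMPO it was 2.42-fold higher, 1.28 on the log2 scale (SE 0.413, edgeR adjusted p = 0.0304). The latter call was lost without FAC replicate 1, 2 or 3, without MT+FAC replicate 1 (0.96) or 3, and with no filter on low counts. Against control, neither group was called, at 0.87 and 0.48 (edgeR adjusted p = 0.129 and 0.448). The first was 1.29 without control replicate 3 and 1.14 with the offsets, and was called in both.

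**Figure D3:**
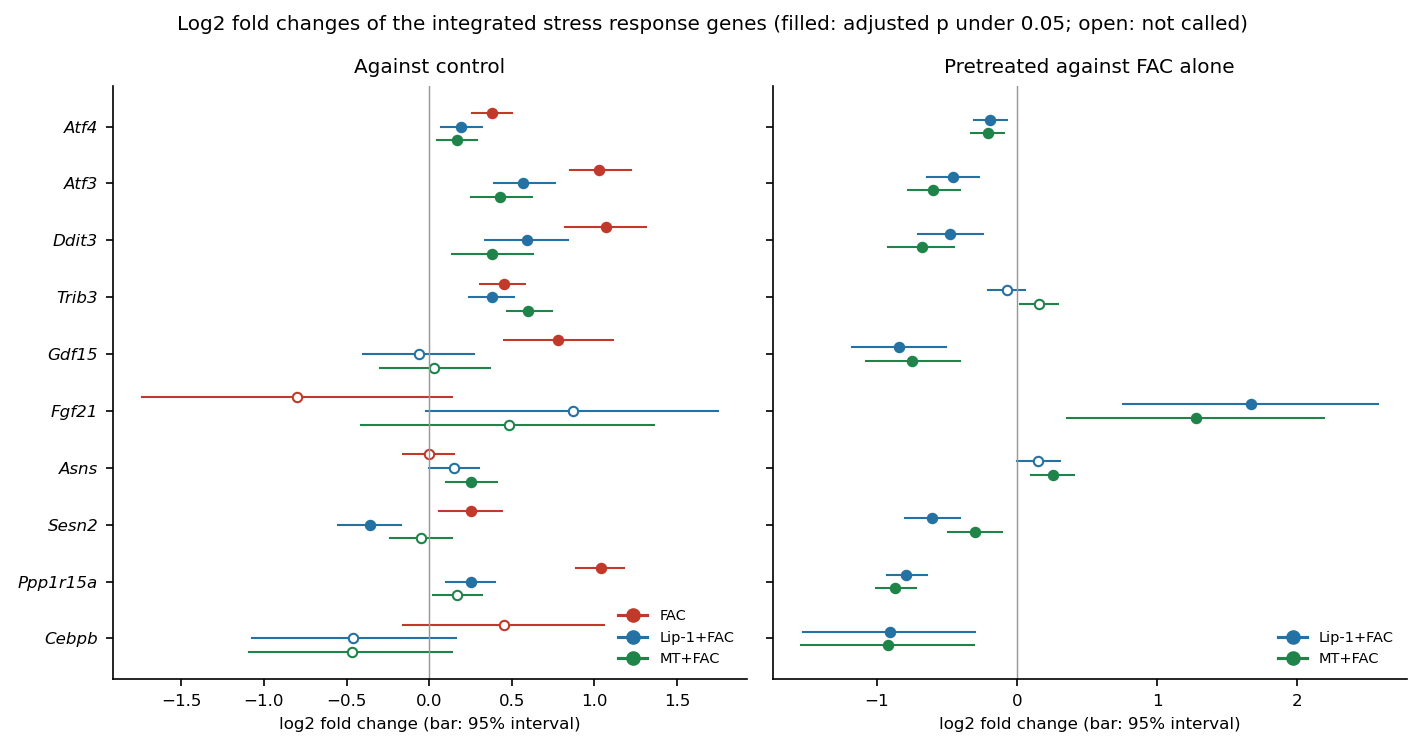
Log2 fold changes with 95% intervals against control (left) and of the pretreated groups against FAC alone (right), filled where the edgeR adjusted p was under 0.05. In Lip-1+FAC and MT+FAC, Atf3, Ddit3 and Trib3 kept positive, called values against control, while Gdf15 lay near 0, at -0.06 and 0.03.

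Against control, a comparison in which both agents differ, Lip-1+FAC had 5 of the 10 genes higher and 1, Sesn2, lower, beside 30.2% of all genes called, 15.4% higher and 14.8% lower. MT+FAC had 5 higher and 0 lower, beside 19.8% of all genes called, 9.71% higher and 10.1% lower. In each comparison 6 of the 10 genes had no overlap between groups, against 43.3% and 38.2% of all genes. Atf4, Atf3, Ddit3 and Trib3 were called higher than control in each of the 3 comparisons with control, which share the control libraries. Their log2 fold changes against control in FAC, Lip-1+FAC and MT+FAC were 0.38, 0.19 and 0.17 for Atf4 and 1.03, 0.57 and 0.43 for Atf3. They were 1.07, 0.59 and 0.38 for Ddit3 and 0.45, 0.38 and 0.60 for Trib3. The count in MT+FAC fell to between 2 and 4 when a library was left out. It was 2 without control replicate 1 and without MT+FAC replicate 2, and 3 without control replicate 2.

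The scavengers were compared directly in MT+FAC against Lip-1+FAC. None of the 10 genes was called by edgeR (0 of 10), where 1.34% of all genes were called, 0.465% higher and 0.879% lower. At an unadjusted p under 0.05 there were 2, Trib3 and Sesn2, both higher with Mito-TEMPO, and DESeq2 called 1, Trib3. Without overlap were 3 of the 10, Trib3, Gdf15 and Sesn2, against 19.8% of all genes. Trib3 differed by 0.23 (SE 0.0643, 95% interval 0.09 to 0.36, edgeR adjusted p = 0.0877) and Sesn2 by 0.31 (SE 0.0913, 95% interval 0.12 to 0.50, edgeR adjusted p = 0.105). Over the alternatives, the adjusted p ranged from 0.0329 to 0.406 for Trib3 and from 0.00705 to 0.403 for Sesn2. For the others the 95% intervals of the log2 difference were -0.14 to 0.10 for Atf4, -0.32 to 0.04 for Atf3 and -0.45 to 0.03 for Ddit3. They were -0.63 to 0.60 for Cebpb, -0.23 to 0.07 for Ppp1r15a, -0.05 to 0.26 for Asns, -0.24 to 0.43 for Gdf15 and -1.25 to 0.47 for Fgf21. Each of these intervals holds values of either sign.

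Levels of different genes were compared per length, as RPKM, which divides CPM by the kilobases of exon. The order depends on the counting column for Cebpb and Ddit3, which share exonic bases with other genes, and is first given for the unstranded column. In control, Asns was highest at 79.2 ± 4.61 RPKM, followed by Cebpb at 76.3 ± 20.6, Atf4 at 58.9 ± 1.85 and Trib3 at 50.7 ± 2.42 (SD, n = 3). The libraries of Asns and Cebpb overlapped, as did those of Cebpb and Atf4, whereas those of Atf4 and Trib3 did not. Gdf15 at 36.2, Atf3 at 33.8 and Ppp1r15a at 28.8 RPKM followed with overlapping neighbours. Sesn2 at 17.5, Ddit3 at 5.98 and Fgf21 at 5.27 RPKM were lowest, the last pair overlapping. In FAC, Cebpb was highest at 104.1 ± 30.1 RPKM and overlapped Asns (SD, n = 3). Atf3 reached 69.2 ± 5.81 RPKM and overlapped Trib3 at 69.0 ± 5.86, both below Atf4 at 76.8 ± 0.72 (SD, n = 3). In Lip-1+FAC and MT+FAC Asns had the highest mean, at 87.8 ± 7.65 and 94.4 ± 8.33 RPKM (SD, n = 3). With the stranded columns summed, which can also hold reads of Tmem189, the mean of Cebpb was above that of Asns in every group, at 138.6 RPKM in control, 195.7 in FAC, 108.7 with liproxstatin-1 and 112.5 with Mito-TEMPO. The mean of Ddit3 was then above that of Sesn2 in FAC (23.4 against 20.7 RPKM), MT+FAC (18.5 against 16.9) and Lip-1+FAC (19.7 against 13.6), but not in control (15.9 against 17.5).

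Other genes of the pathway were read from lists written for this purpose, whose counts stand beside the shares of all genes called: 17.5% higher and 19.1% lower with FAC, 20.7% and 19.2% with liproxstatin-1 against FAC, and 21.2% and 19.7% with Mito-TEMPO against FAC. No list was tested against other genes. Of the 13 genes of eIF2 control, FAC raised 5 and lowered 5, with the largest rise in Eif2ak3, which encodes the ER stress kinase PERK (0.47), and the largest fall in Eif2ak2, which encodes the kinase PKR (-0.51). With liproxstatin-1 before FAC, 3 were higher and 3 lower than with FAC, and with Mito-TEMPO 4 and 2. The share called was near the 39.9% and 40.9% of all genes called in these comparisons. Oma1, encoding a mitochondrial protease that relays mitochondrial stress to this pathway, was the largest rise with each scavenger, at 0.48 in both. FAC had lowered Oma1 (-0.40, edgeR adjusted p = 0.00255), from a control mean of 23.2 CPM to 17.5 CPM. Its mean was 24.5 CPM after liproxstatin-1 and 24.4 CPM after Mito-TEMPO, near the control mean. The difference of Lip-1+FAC from control was not called (0.08, edgeR adjusted p = 0.565). Among 10 tested partners and related bZIP factors, FAC raised 6 and lowered 0. Against FAC, liproxstatin-1 raised 0 and lowered 2 (median 0.06), and Mito-TEMPO raised 0 and lowered 3 (median -0.07). Fos, an immediate early gene, had the largest values in this list, 1.43 with FAC, -2.47 in Lip-1+FAC against FAC and -1.84 in MT+FAC against FAC. It was also the only gene of that list called between the scavengers, 0.63 higher with Mito-TEMPO (edgeR adjusted p = 0.00226).

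Of 13 other targets of ATF4 and CHOP, FAC raised 8 and lowered 1, and the median log2 fold change was 0.49. The largest rise was that of Bbc3, a pro-death BCL2 family gene, from 10.7 ± 1.85 to 22.1 ± 4.73 CPM (SD, n = 3), 1.05 on the log2 scale. Liproxstatin-1 lowered 9 and raised 2, with a median of -0.83, and Mito-TEMPO lowered 9 and raised 1, with a median of -0.75. Ddit4, an mTORC1 inhibitor, had the largest fall with Mito-TEMPO, at -1.29, from 29.3 ± 6.17 in FAC to 11.97 ± 0.23 CPM (SD, n = 3). Stc2, a secreted stanniocalcin, had the largest fall with liproxstatin-1, at -2.44, from 1.54 ± 0.206 to 0.273 ± 0.143 CPM (SD, n = 3). FAC had called neither, with control means of 26.7 CPM for Ddit4 (0.13, edgeR adjusted p = 0.471) and 1.13 CPM for Stc2 (0.44, edgeR adjusted p = 0.369). Against control, Ddit4 was -1.16 with Mito-TEMPO and Stc2 -2.01 with liproxstatin-1. Of this list, liproxstatin-1 left 1 above and 5 below control, beside 15.4% and 14.8% of all genes. Mito-TEMPO left 2 above and 3 below, beside 9.71% and 10.1%.

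Of the amino acid transporters, 7 of 10 were higher and 1 lower with FAC, and the median was 0.51. Slc7a11, the cystine transporter and also a listed NRF2 target, had the largest rise of this list, 1.96, and rose further with both scavengers, by 1.09 and 0.49. Against FAC, 3 of the 10 transporters were higher and 4 lower with liproxstatin-1 (median 0.01), and 2 higher and 3 lower with Mito-TEMPO (median 0.03). Slc7a5, a leucine transporter, had the largest fall with each scavenger, at -0.96 with liproxstatin-1 and -0.45 with Mito-TEMPO. Of 14 genes of serine, one-carbon and amino acid synthesis, FAC raised 4 and lowered 2, with a median of 0.01 and a share called near the 36.6% of all genes. Mito-TEMPO raised 8 and lowered 2, and liproxstatin-1 raised 6 and lowered 3. Phgdh, the entry enzyme of serine synthesis, had 89.5 ± 10.3 CPM in control and 87.2 ± 4.88 CPM in FAC, where liproxstatin-1 gave 140.2 ± 3.6 and Mito-TEMPO 136.0 ± 0.208 CPM (SD, n = 3). Shmt2, a mitochondrial serine hydroxymethyltransferase, had the largest fall, at -0.87 and -0.69 against FAC. Of 12 aminoacyl-tRNA synthetases, FAC raised 3 and lowered 2 (median -0.05), liproxstatin-1 raised 5 and lowered 0, and Mito-TEMPO raised 7 and lowered 1. With FAC and with liproxstatin-1, the share of synthetases called was near the 36.6% and 39.9% of all genes.

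Neighbouring stress programmes were set beside these genes. Of 18 ER chaperones and targets of ATF6 and XBP1, FAC raised 3 and lowered 6, with a median of -0.10. Dnajb9, an ER co-chaperone, had the largest rise, 0.73, and Pdia4, a disulfide isomerase, the largest fall, -0.52. Of this list liproxstatin-1 raised 7 and lowered 1, and Mito-TEMPO raised 5 and lowered 2, each with a median of 0.08. With each scavenger the share of this list called was near that of all genes, 39.9% and 40.9%. Of 8 mitochondrial chaperones and proteases, FAC raised 2 and lowered 2, liproxstatin-1 raised 4 and lowered 2, and Mito-TEMPO raised 3 and lowered 2. Lonp1, a matrix protease, was 0.40 with FAC and -0.57 against FAC with each scavenger. The chaperone gene Trap1 was higher than with FAC by 0.33 with liproxstatin-1 and 0.30 with Mito-TEMPO. Of 17 NRF2 targets, FAC raised 15 and lowered 0 (median 0.62), liproxstatin-1 raised 13 and lowered 2, and Mito-TEMPO raised 10 and lowered 2. The 2 lowered with each were Hmox1 and G6pdx. Hmox1, the largest rise with FAC (3.10), was -0.79 against FAC with liproxstatin-1 and -1.02 with Mito-TEMPO. G6pdx was -0.87 and -0.97. With both scavengers the NRF2 targets had positive medians, 0.50 and 0.23, where the 10 stress response genes had medians of -0.47 and -0.45. The difference between these lists was not tested.

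**Figure D4:**
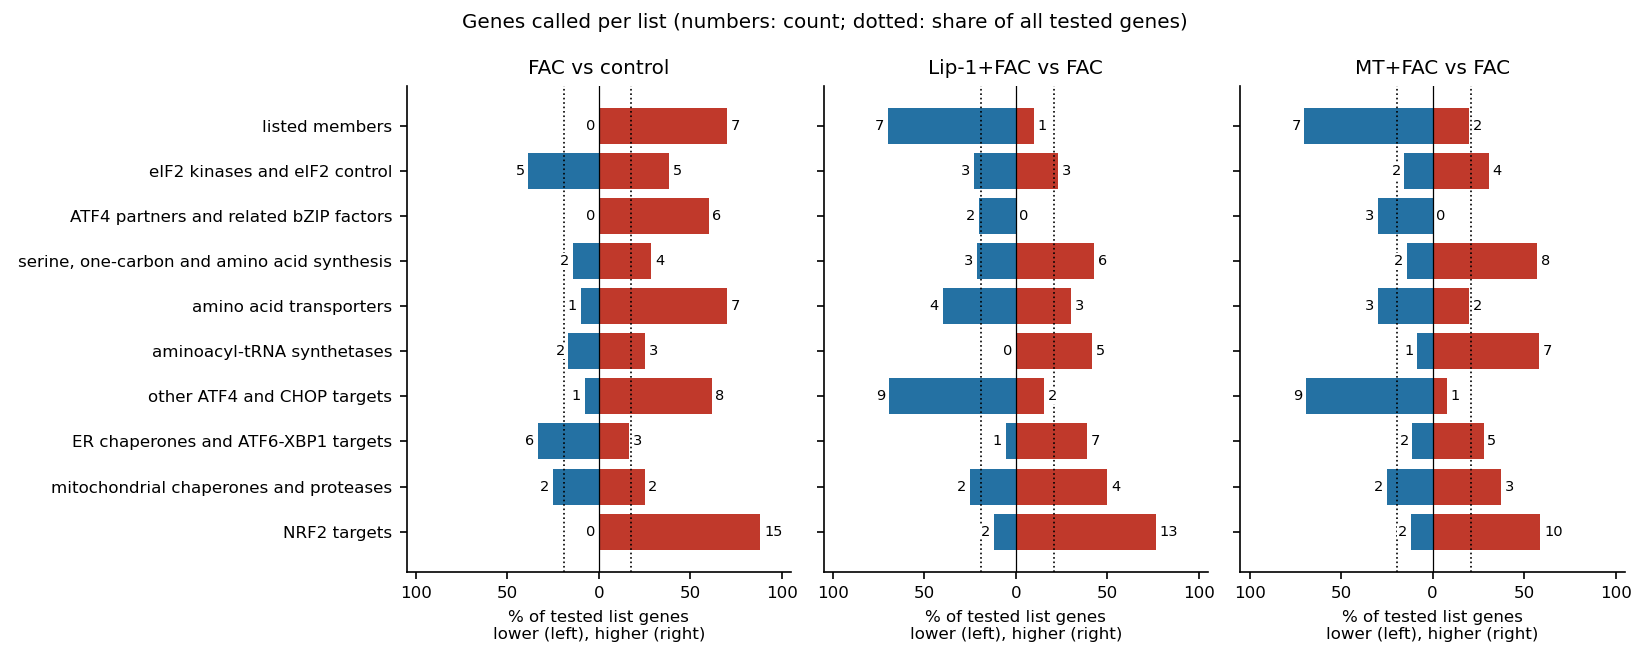
Share of the tested genes of each list that were called lower (left) or higher (right) in 3 comparisons, with counts beside the bars and dotted lines at the share of all genes tested. The 10 genes and the other ATF4 and CHOP targets were mostly higher with FAC (7 of 10 and 8 of 13) and mostly lower with each scavenger (7 of 10 and 9 of 13), while biosynthetic genes and tRNA synthetases had more rises than falls with the scavengers.

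The members were compared by the root-mean-square difference of their centred log2 CPM over the 12 libraries, where 0 means the same profile and size of change. The closest pairs among the members were Atf3 with Ddit3 (0.155) and Ddit3 with Ppp1r15a (0.164). Among 8990 other protein-coding genes with a mean of at least 5 CPM, the closest to Asns was Aars, which encodes alanyl-tRNA synthetase, at 0.0489. Aars had means of 487 CPM in control, 474 CPM in FAC and, in the pretreated groups, 533 and 553 CPM. The closest to Sesn2 was Eif2b2, a subunit of the exchange factor of eIF2, at 0.091, and the closest to Atf4 was Wsb2, at 0.0478. Those closest to the other members were Zbtb21 for Atf3 (0.0896), Rbm15 for Ddit3 (0.131), Stub1 for Cebpb (0.155), Pvr for Ppp1r15a (0.0919), Il4ra for Trib3 (0.107), Zbtb7a for Gdf15 (0.0791) and Khk for Fgf21 (0.305). The measure grows with a gene's own spread, which was largest for Fgf21 (SD 0.772 over the 12 libraries).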

How the data were processed

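Total RNA of cultured hepatocytes was made into cDNA with SMART-Seq v4 and into libraries with Nextera XT, per the labels' protocols. The authors deposited raw counts of reads per gene in the layout of STAR, on GRCm38 per the submitters' processing notes. The STAR version and annotation are not given in the sources used here. No molecular identifiers are mentioned, so reads are not independent molecules. The unstranded column was used, and the stranded columns, whose totals were nearly equal, were summed as an alternative. Names and coordinates come from GENCODE M21 (GRCm38), which held 55227 of the 55487 identifiers. Reads in the lines that name no gene, 18.8% to 24.2% of those listed per library, stayed out of library sizes and tests.

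Genes were kept by filterByExpr, libraries scaled by TMM, and all 12 fitted with 4 group means by the quasi-likelihood test of edgeR 4.0.16 in R 4.3.3, checked on simulated data. P-values are two-sided. CPM uses the scaled library sizes. Intervals of 95% use the test's degrees of freedom. Members and lists were chosen with earlier results of these data known. The text names all 10 members, the nearest profile of each, and from the lists only genes that had the largest called rise or fall of their list in a comparison, not all of these. Alternatives changed scaling, filter, test (DESeq2 1.42.0), counting column, libraries, depth of FAC replicate 2, replicate block, and offsets for GC content and length.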

Additional observations from a re-analysis of the deposited data

How the results depend on the processing

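Each result was recomputed under 10 other settings and without each of the 6 libraries compared. Of 960 values of single genes, 868 kept direction and call, 52 lost their call, 17 gained one and 23 changed sign. The number of members called in FAC against control was 6 or 7 throughout. Without a library it was 6 to 7, in Lip-1+FAC against FAC 6 to 9, in MT+FAC against FAC 6 to 9, in Lip-1+FAC against control 5 to 7, in MT+FAC against control 2 to 4, and in MT+FAC against Lip-1+FAC 0. In MT+FAC against control it was 3 with the stranded columns summed. In MT+FAC against Lip-1+FAC it was 2 without a filter on low counts, 1 with DESeq2 and 1 with only the compared groups in the fit. In that comparison, all genes called numbered 182, but 477 without the filter, 465 with DESeq2, 312 with only the compared groups, and 74 to 156 without a library. The higher calls were 63 of 182, and 85 of 182 with upper-quartile scaling. The cause was not tested in any of these.

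Signs changed for values near 0. Asns in FAC against control was 0.02 with RLE scaling and DESeq2, 0.01 without the filter, with the summed columns and with only the compared groups, 0.00 with a filter at a mean CPM of 5 and with FAC replicate 2 thinned, 0.12 with the offsets, and -0.04 to 0.05 when a library was left out. In MT+FAC against Lip-1+FAC, Cebpb was 0.00 with upper-quartile scaling, 0.03 with the summed columns and -0.19 to 0.16 without a library, and Atf4 was -0.10 to 0.02 without a library. Against control, Gdf15 in Lip-1+FAC was 0.23 with the offsets and -0.10 to 0.00 without a library, and in MT+FAC -0.01 to 0.10 without a library. Sesn2 in MT+FAC against control was 0.03 with the offsets. Trib3 in Lip-1+FAC against FAC was 0.21 with the offsets and was then called.

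Same-numbered libraries deviated together with correlations of -0.25 to 0.16, so the numbers were not taken as pairs, and 4 of 12 libraries correlated best with their own number. With a replicate block, Cebpb lost its calls against FAC (-0.91 and -0.92, edgeR adjusted p = 0.0568 and 0.0527), Atf4 its call in MT+FAC against control (0.17), and Trib3 was called in MT+FAC against FAC (0.16). Intervals cover the spread between libraries only. Within groups, the chi-square per degree of freedom between libraries was 8.23 to 22.2, above counting error.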
